A study of Mus musculus with 13 samples.

Results

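The mammalian respiratory chain is built from subunits of both the nuclear and the mitochondrial genome, and the genes described here are the nuclear-encoded ones. They were chosen by symbol: Nduf genes stand for complex I, Sdh genes for complex II, Uqcr genes for complex III, Cox4 to Cox8 genes for complex IV and Atp5 genes for complex V. The count table of the series held 84 of them among 23418 genes, with 37 in complex I, 4 in complex II, 8 in complex III, 18 in complex IV and 17 in complex V. A total of 81 had enough reads to be tested. Ndufs5, an accessory subunit of complex I, and Cox7b2 and Cox8c, testis isoforms of complex IV subunits in mammals, had no read in any of the 13 libraries, which allows up to 0.00619 CPM (counts scaled to the size of the library) over all of them, for counting error only. Of the 50-base stretches of Ndufs5, 31.1% also occur in another annotated gene, BC002163, and the sources used here do not say how such reads were counted. The subunits of the mitochondrial genome were not analysed here.

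The libraries are bulk RNA sequencing of 4 samples of muscle FAPs (replicates 2 to 5), 5 samples of lung FAPs (replicates 1 to 5) and 4 samples of MEFs (replicates 1 to 4). Fibro/adipogenic progenitor is the usual meaning of FAP, a mesenchymal cell that lies between muscle fibres and supports their repair, and mouse embryonic fibroblast that of MEF. The labels give the tissue and these abbreviations alone. They say nothing of how the cells were sorted, of the strain, age, sex or genotype of the animals, of pooling, of how long the MEFs were grown, or of whether each replicate is an animal or culture of its own. The p-values therefore describe the spread among these libraries only, and part of it may be technical. The series set out to find transcripts of muscle FAPs that act on satellite cells, with lung FAPs sequenced beside them. Its parabiosis work was not analysed here.

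As background, complex I takes electrons from NADH and complex II takes them from succinate, as a step of the citric acid cycle. Ubiquinone carries them to complex III, cytochrome c carries them on to complex IV, where oxygen is reduced, and complex V uses the proton gradient built on the way to make ATP. Several subunits of complex IV come in alternative forms that are known from particular tissues, such as COX4I2 in lung and smooth muscle, COX6B2 in testis, and COX6A2, COX7A1 and COX8B in heart, skeletal muscle or brown fat. NDUFA4L2 is an alternative form of NDUFA4 known as a target of the hypoxia factor HIF-1.

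Total counts were 41327292 to 44699463 in the muscle FAPs, 28636183 to 35464622 in the lung FAPs and 33756915 to 41466585 in the MEFs. The summed level of the FAP markers Pdgfra, Ly6a and Cd34 was 3613 to 3913 CPM in the muscle FAPs, 2590.1 to 4065 in the lung FAPs and 113 to 159 in the MEFs. Some lung FAP libraries stood apart in markers of other cells. The library lung FAP 3 held 8016 CPM summed over 6 lung epithelium markers, against 16.8 to 103 in the other lung FAPs, and 645 CPM over 6 blood markers, against 20.96 to 43.1. Of that blood sum Lyz2 alone held 615 CPM. Other blood markers did not set lung FAP 3 apart. Ptprc stood at 13.1 CPM there and 20.2 in lung FAP 2, Itgam at 8.76 and 8.73, and Cd68 at 6.97 and 5.59. Over the 6 blood markers MEFs held 98.0 to 405 CPM and muscle FAPs 5.01 to 6.45. In the MEFs Lyz2 stood at 67.6 to 322 CPM, Cd68 at 23.1 to 54.7, Itgam at 4.04 to 16.8 and Ptprc at 2.93 to 11.2. Cd79a averaged 0.161 CPM in the MEFs and 0.762 in the muscle FAPs. The part of blood cells in the MEF levels was not tested. Lung FAP 2 held 573 CPM over 6 endothelial markers, against 34.3 to 173 in the other lung FAPs. Markers of the cell cycle (Mki67, Top2a, Ccnb1) summed to 2.54 to 6.96 CPM in the muscle FAPs, 4.30 to 8.96 in the lung FAPs and 38.7 to 63.5 in the MEFs. In bulk samples, fewer cells of a type and less RNA per cell cannot be told apart.

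Both kinds of FAP held less respiratory chain RNA than MEFs. Summed over the 84 genes, the level scaled by the trimmed mean of M-values (TMM) was 4333, 4419, 4688 and 4929 CPM in the muscle FAPs, 4946, 4843, 4538, 5647 and 4751 in the lung FAPs, and 8594, 9685, 9890.5 and 8154 in the MEFs. No FAP library reached the lowest MEF library, while muscle and lung FAPs overlapped. The means were 4592 ± 271 CPM in the muscle FAPs, 4945 ± 420.1 in the lung FAPs and 9081 ± 840 in the MEFs (SD over 4, 5 and 4 libraries, as with every ± here), which put muscle FAPs at 0.506 and lung FAPs at 0.545 times the MEF mean. As a share of all counts, without any scaling, these genes took 0.346% to 0.399% in the muscle FAPs, 0.468% to 0.594% in the lung FAPs and 0.960% to 1.15% in the MEFs, so that none of the 3 groups overlapped on that scale. Complex V summed to 1931 ± 79.7 CPM in the muscle FAPs, 1833 ± 136 in the lung FAPs and 3948 ± 399 in the MEFs. Within it Atp5b averaged 608 CPM in the muscle FAPs and 439 in the lung FAPs, and Atp5a1 410 and 363. By gene, more of complex V was lower than higher in the muscle FAPs against the lung FAPs, as given below. These sums are descriptions and were not tested.

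**Figure D1:**
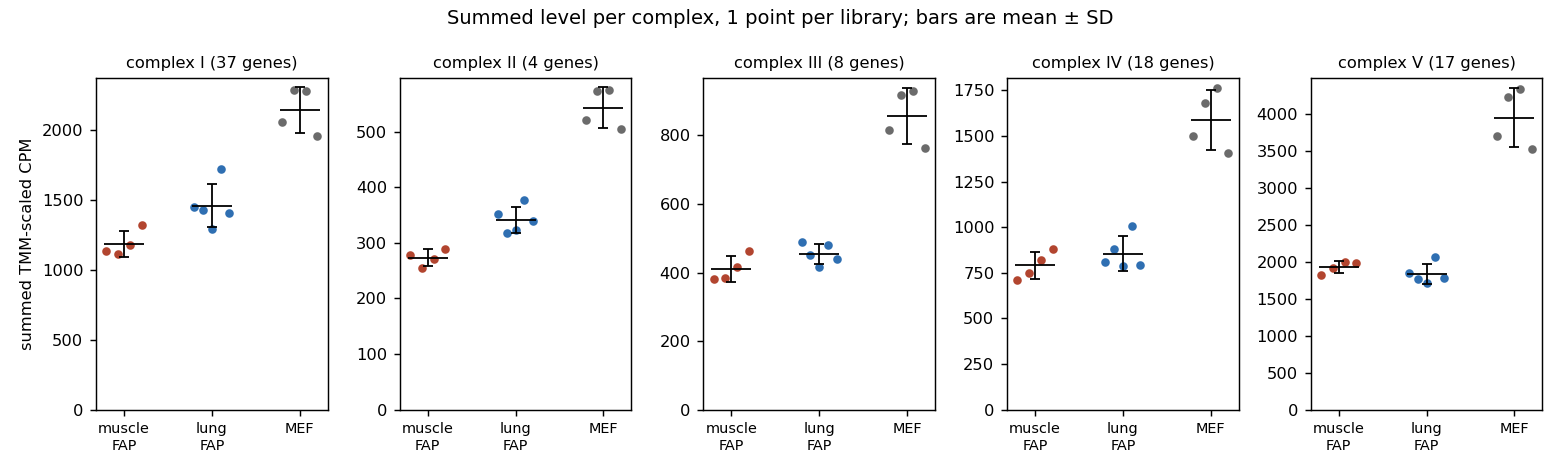
Summed TMM-scaled CPM of the genes of each complex (y axis, from 0) in every library of the muscle FAPs, lung FAPs and MEFs (x axis); points are libraries, bars are mean ± SD. In all 5 complexes every MEF library lies above every FAP library; in complex II the 4 muscle FAP libraries (254 to 289.6 CPM) lie below the 5 lung FAP libraries (317 to 376 CPM).

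Against MEFs, most of the chain was lower in the muscle FAPs. Of the 81 genes tested, 67 were lower, 2 were higher and 12 did not pass edgeR's quasi-likelihood test at an adjusted p of 0.05. Among all 15412 genes tested, 37.3% were lower and 36.1% were higher. The median log2 fold change was −0.94 for the chain and −0.04 for all genes. The genes called lower were 1.21-fold to 5.22-fold lower. In 65 genes every muscle FAP library lay below every MEF library and in 2 every one lay above, against 38.2% and 35.7% of all genes. The 2 higher genes were Ndufa4l2 and Cox8b, both alternative forms. With library size as the only scaling, 31.7% of all called genes were higher in the muscle FAPs, against 49.2% with TMM, and the median of all genes moved to −0.62; relative to that median the chain stood at −0.90 under both scalings.

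Most of the chain was also lower in lung FAPs against the same MEF libraries, which both comparisons share. Of the 81 genes, 61 were lower, 6 were higher and 14 did not pass in edgeR, beside 36.6% lower and 37.8% higher among all genes tested. The median log2 fold change was −0.74 for the chain and 0.02 for all genes. Libraries did not overlap in 57 genes that lay below the MEFs and in 5 that lay above, against 33.1% and 32.2% of all genes. The 6 higher genes were Cox4i2, Cox6b2, Cox8b and Ndufa4l2, all alternative forms, with Ndufa6, an accessory subunit of complex I, and Atp5s, also called factor B of ATP synthase.

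Between both kinds of FAP the differences were smaller and ran mostly one way. In muscle FAPs 31 genes were lower than in the lung FAPs, 3 were higher and 47 did not pass in edgeR, beside 25.0% lower and 23.2% higher among all genes tested. The median log2 fold change was −0.23 for the chain and −0.04 for all genes. Libraries did not overlap in 24 genes below and 3 above, against 19.0% and 19.0% of all genes. Cox4i2 and Cox6b2 apart, the genes called lower fell by at most 0.80 on the log2 scale. The count of calls moved with the scaling. With library size only, the median of all genes was −0.44 and 18.85% of all called genes were higher in the muscle FAPs, against 48.1% with TMM; the chain then had 74 genes lower and 0 higher, and its median stood at −0.19 relative to all genes under both scalings. Without lung FAP 4, in which the chain was highest, 26 genes were lower and 3 higher, and the median was −0.15.

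**Figure D2:**
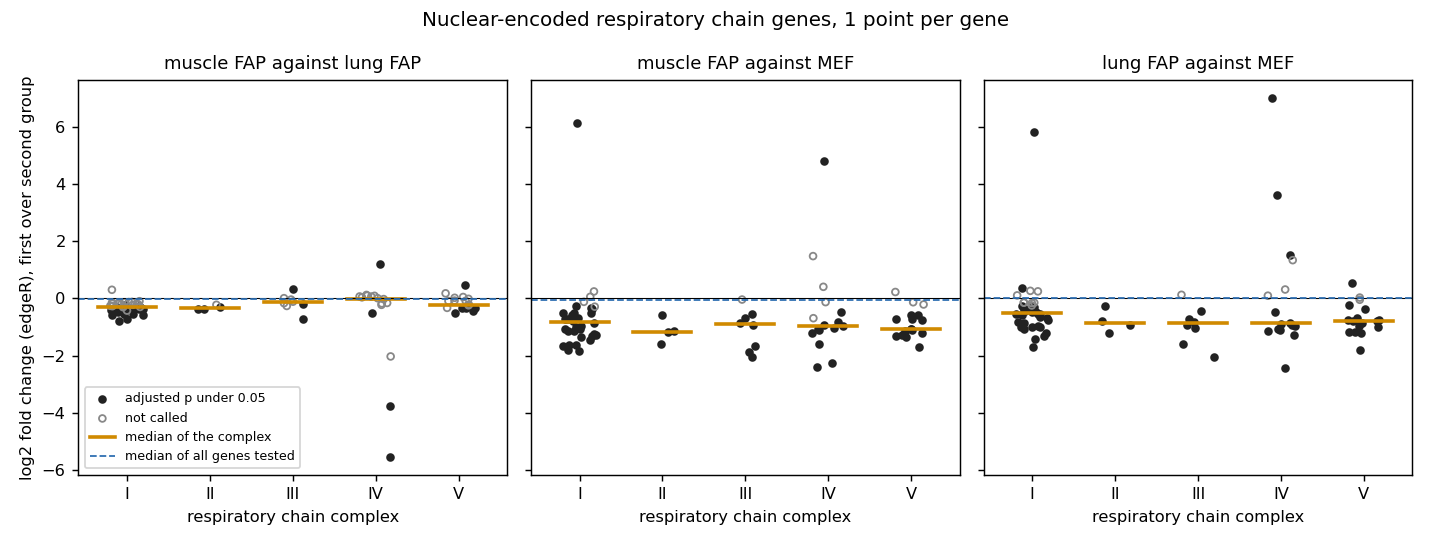
log2 fold change of each tested gene (y axis), first-named group over second, by complex (x axis) for the 3 comparisons. Filled points passed edgeR's test at an adjusted p of 0.05, open points did not; orange bars are the medians of each complex and the dashed line is the median of all 15412 genes. Against MEFs the complexes' medians lie between −1.16 and −0.51, while a few alternative forms, grouped by symbol under complexes I and IV, lie far above 0.

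The start regions of these genes were read for short motifs of factors known to act on respiratory chain genes. RefSeq (GRCm38.p6) had an entry for 66 of the 84 genes, and each window ran from 250 bases before the start to 50 after it. A chain gene was counted once, as holding a motif if any of its windows did, and some genes have several windows. The shares set beside these counts are of single windows, so the units differ for all 4 motifs. The NRF1 motif, searched as GCGCANGCG on both strands, was in a window of 20 of the 66 genes (30.3%), against 2053 of 32851 windows in the table (6.25%) and 11.4% of the 14300 windows of genes tested here. The core of the GABPA motif, CCGGAAG, was in 16 (24.2%, against 15.0% of windows of tested genes), the YY1 motif ATGGCGG in 10 (15.2%, against 6.84%) and the ESRRA motif TCAAGGTCA in 2 (3.03%, against 0.266%). None of the 4 motifs contains another. Among tested genes, those with the NRF1 motif had a median log2 fold change of −1.07 in the muscle FAPs against the MEFs (19 genes) and those without it −0.98 (45 genes), while in the lung FAPs against the MEFs the medians were −0.76 with it and −0.81 without. For the YY1 motif the medians in the muscle FAPs against the MEFs were −0.70 with it (10 genes) and −1.05 without (54 genes). The median was below 0 with and without each of these motifs. A match is a description of letters and not of binding. Printed next, 5′ to 3′ on the strand of the gene, are the 250 bases before the start of 4 genes, 2 with the NRF1 motif and 2 of the alternative forms described later, with the NRF1 motif in capitals. They show what a match looks like and were not chosen to stand for other genes. Sdha (chr13:74350241-74350490, minus strand) and Cox6a1 (chr5:115348959-115349208, minus strand) each held 3 matches and were lower in FAPs than in the MEFs; a pair of the Cox6a1 matches are the same palindrome read on either strand. Cox6b2 (chr7:4753095-4753344, minus strand) and Cox8b (chr7:140900447-140900696, minus strand) held none of the 4 motifs and were higher in the lung FAPs than in the MEFs, while in the muscle FAPs Cox6b2 was lower and Cox8b higher than in the MEFs.
Sdha: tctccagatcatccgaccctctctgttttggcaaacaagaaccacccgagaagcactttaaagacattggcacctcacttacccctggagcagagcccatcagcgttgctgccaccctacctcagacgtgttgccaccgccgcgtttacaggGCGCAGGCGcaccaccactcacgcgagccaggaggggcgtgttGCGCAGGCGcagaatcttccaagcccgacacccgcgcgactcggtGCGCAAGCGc
Cox6a1: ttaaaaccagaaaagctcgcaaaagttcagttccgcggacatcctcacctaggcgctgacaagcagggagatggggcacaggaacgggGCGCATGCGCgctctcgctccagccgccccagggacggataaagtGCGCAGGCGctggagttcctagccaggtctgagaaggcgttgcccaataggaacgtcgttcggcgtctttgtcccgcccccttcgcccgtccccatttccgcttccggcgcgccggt
Cox6b2: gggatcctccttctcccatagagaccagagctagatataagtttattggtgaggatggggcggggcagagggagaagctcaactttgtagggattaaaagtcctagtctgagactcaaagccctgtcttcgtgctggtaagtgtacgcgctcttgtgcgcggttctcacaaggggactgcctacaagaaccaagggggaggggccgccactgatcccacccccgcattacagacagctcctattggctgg
Cox8b: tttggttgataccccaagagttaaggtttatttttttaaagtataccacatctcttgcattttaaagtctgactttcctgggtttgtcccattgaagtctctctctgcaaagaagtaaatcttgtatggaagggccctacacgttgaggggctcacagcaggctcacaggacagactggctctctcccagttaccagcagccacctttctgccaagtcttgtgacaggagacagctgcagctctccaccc

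Complex I is the largest complex, with a peripheral arm that holds the flavin and the iron-sulfur clusters and accessory subunits around it. Of 36 genes tested, 31 were lower and 1 higher in the muscle FAPs than in the MEFs, with a median log2 fold change of −0.82, and 26 were lower and 2 higher in the lung FAPs, with a median of −0.51. Among all genes tested, 37.3% were lower and 36.1% higher in the muscle FAPs than in the MEFs. In the lung FAPs these shares were 36.6% and 37.8%. Ndufa4l2, placed here by its symbol, was the higher gene in the muscle FAPs and 1 of the 2 in the lung FAPs. Its partner Ndufa4, counted among the lower genes, is named for complex I and now placed in complex IV. Muscle FAPs were lower than lung FAPs in 17 genes and higher in 0, with a median of −0.29, beside 25.0% lower and 23.2% higher among all genes tested. Ndufs8, an iron-sulfur subunit of the peripheral arm, was lower in the muscle FAPs than in the MEFs by a log2 fold change of −1.64. Of the 10 NDUFB genes, which belong to the membrane arm, 9 were lower in the muscle FAPs and 7 in the lung FAPs than in the MEFs.

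Ndufb7, an accessory subunit of the membrane arm, had the largest difference within complex I between both kinds of FAP. It stood at 12.4, 13.2, 14.3 and 20.4 CPM in the muscle FAPs, at 22.9, 24.3, 23.8, 33.5 and 26.5 in the lung FAPs, and at 47.2, 57.0, 62.4 and 42.5 in the MEFs. All muscle FAPs lay below all lung FAPs, and these below all MEFs. The log2 fold change was −0.80 in the muscle FAPs against the lung FAPs (SE 0.19, edgeR adjusted p = 0.00113), −1.79 against the MEFs (SE 0.20, edgeR adjusted p = 2.42e-07), and −0.997 in the lung FAPs against the MEFs (SE 0.16, edgeR adjusted p = 4.82e-05). Ndufa11, which lies in the membrane arm, had the same order of groups without overlap. It stood at 20.99, 21.2, 20.8 and 25.2 CPM in the muscle FAPs, at 37.6, 38.7, 26.6, 39.3 and 37.2 in the lung FAPs and at 47.1, 60.3, 73.3 and 42.4 in the MEFs. Its log2 fold change was −0.70 in the muscle FAPs against the lung FAPs (SE 0.12, edgeR adjusted p = 0.00195).

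Ndufa12 is an accessory subunit of the peripheral arm and passed against MEFs, but did not pass between both kinds of FAP. It stood at 14.2, 14.7, 15.5 and 15.2 CPM in the muscle FAPs, at 14.3, 15.5, 17.8, 20.5 and 15.0 in the lung FAPs and at 48.8, 61.1, 57.8 and 46.8 in the MEFs. Muscle and lung FAPs overlapped, with a log2 fold change of −0.16 (SE 0.10, edgeR adjusted p = 0.303), and all lay below the MEFs, at −1.85 for muscle FAPs (SE 0.10, edgeR adjusted p = 4.49e-09) and −1.69 for lung FAPs (SE 0.13, edgeR adjusted p = 4.84e-09). A few subunits of the same complex did not pass in most comparisons. Ndufb11 ranged over 63.5 to 78.9 CPM in the muscle FAPs, 71.6 to 101 in the lung FAPs and 57.9 to 72.9 in the MEFs, with log2 fold changes of −0.21, 0.06 and 0.26 in the 3 comparisons, none past edgeR's test. Ndufa5 had −0.12 in the muscle FAPs and 0.25 in the lung FAPs against the MEFs, neither past the test, and was lower in the muscle FAPs than in the lung FAPs at −0.37 (edgeR adjusted p = 0.0135). Ndufa6 had 34.1, 33.7, 38.5 and 46.5 CPM in the muscle FAPs, 36.3, 39.0, 40.6, 48.9 and 43.1 in the lung FAPs and 35.7, 32.5, 27.9 and 32.9 in the MEFs, and passed only in the lung FAPs against the MEFs (log2 fold change 0.37, SE 0.10, edgeR adjusted p = 0.0123).

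Complex II, succinate dehydrogenase, has 4 subunits, and all 4 genes were lower in both kinds of FAP than in the MEFs, with medians of −1.16 in the muscle FAPs and −0.85 in the lung FAPs. Of all genes tested, 37.3% were lower in the muscle FAPs and 36.6% in the lung FAPs than in the MEFs. Sdha, the flavoprotein that oxidises succinate, stood at 147, 125, 135 and 135 CPM in the muscle FAPs, at 166, 155, 172, 175 and 176 in the lung FAPs and at 198, 202, 197 and 206 in the MEFs. The groups did not overlap and the steps between them were small. The log2 fold change was −0.57 in the muscle FAPs (SE 0.05, edgeR adjusted p = 1.79e-05) and −0.25 in the lung FAPs against the MEFs (SE 0.04, edgeR adjusted p = 0.00931), and −0.32 in the muscle FAPs against the lung FAPs (SE 0.06, edgeR adjusted p = 0.00411). The call in the lung FAPs against the MEFs was lost with MEF 2 and 4 left out together, and when 5 CPM were required in 4 libraries. Sdhb, the iron-sulfur subunit, had a wider gap to MEFs, with 43.2, 44.3, 44.4 and 54.0 CPM in the muscle FAPs, 59.4, 59.3, 49.1, 71.9 and 57.8 in the lung FAPs and 128, 149, 160.2 and 118 in the MEFs. Its log2 fold change was −1.58 in the muscle FAPs (SE 0.13, edgeR adjusted p = 3.24e-08) and −1.22 in the lung FAPs against the MEFs (SE 0.13, edgeR adjusted p = 2.27e-07). Muscle FAP 5 lay above lung FAP 3, and the difference of −0.36 between both kinds of FAP (SE 0.12, edgeR adjusted p = 0.0254) no longer passed when muscle FAP 2, 3 or 4 or lung FAP 4 was left out, or with lung FAP 2, 3 and 4 left out together.

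Sdhc and Sdhd encode the membrane anchors of complex II. Sdhc stood at 43.8, 44.70, 47.3 and 52.4 CPM in the muscle FAPs, at 68.3, 55.1, 54.3, 68.3 and 61.7 in the lung FAPs and at 101, 114, 115 and 92.2 in the MEFs. The 3 groups did not overlap, and muscle FAPs were lower than lung FAPs by a log2 fold change of −0.39 (SE 0.09, edgeR adjusted p = 0.0068). Sdhd stood at 44.1, 40.0, 44.2 and 48.3 CPM in the muscle FAPs, at 58.1, 47.8, 47.5, 60.9 and 43.3 in the lung FAPs and at 93.8, 107, 103 and 87.3 in the MEFs. Muscle and lung FAPs overlapped, and the difference of −0.22 did not pass (SE 0.11, edgeR adjusted p = 0.114), though it did with upper-quartile scaling (−0.29).

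In complex III, which passes electrons from ubiquinol to cytochrome c, 7 of 8 genes were lower in the muscle FAPs and 7 of 8 in the lung FAPs than in the MEFs, with medians of −0.90 and −0.87. The shares lower among all genes tested were 37.3% and 36.6%. Uqcrb, a subunit known to bind near ubiquinone, was the exception in complex III, with log2 fold changes of −0.04 and 0.13. Of its 50-base stretches, 43.4% also occur in other annotated genes, so its level is uncertain. The same limit holds for some genes called lower than in the MEFs, such as Atp5h (47.9%) and Ndufs3 (39.7%). Uqcrq, a small subunit, had the largest gap, with 18.3, 19.5, 18.7 and 22.6 CPM in the muscle FAPs, 21.1, 19.5, 15.7, 26.7 and 15.4 in the lung FAPs and 75.7, 90.9, 93.3 and 67.3 in the MEFs. All FAPs lay below all MEFs and both kinds of FAP overlapped, with a log2 fold change of −2.05 in the muscle FAPs (SE 0.13, edgeR adjusted p = 3.15e-08) and −2.06 in the lung FAPs against the MEFs (SE 0.18, edgeR adjusted p = 1.18e-08). Uqcrc1, a core subunit, stood at 57.7, 58.6, 56.3 and 68.6 CPM in the muscle FAPs, at 85.2, 69.8, 72.8, 57.0 and 77.2 in the lung FAPs and at 192, 239, 265 and 181 in the MEFs. Again the FAPs overlapped one another and not MEFs, at −1.86 in the muscle FAPs (SE 0.14, edgeR adjusted p = 1.44e-08) and −1.60 in the lung FAPs (SE 0.16, edgeR adjusted p = 3.06e-08).

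Uqcr11 and Uqcrfs1 differed between muscle and lung FAPs with opposite signs, and Uqcrc2, a core subunit, had a log2 fold change of −0.21 there that passed narrowly (edgeR adjusted p = 0.0481) and was kept in 8 of 21 alternatives. Uqcr11, the smallest subunit, stood at 16.3, 20.99, 23.2 and 24.96 CPM in the muscle FAPs, at 32.0, 36.5, 29.2, 44.1 and 35.8 in the lung FAPs and at 59.8, 75.7, 81.7 and 54.8 in the MEFs. It did not overlap between any groups and was lower in the muscle FAPs than in the lung FAPs by a log2 fold change of −0.73 (SE 0.17, edgeR adjusted p = 0.00134). Uqcrfs1, the Rieske iron-sulfur protein, stood at 43.6, 46.8, 48.7 and 51.9 CPM in the muscle FAPs, at 37.3, 37.2, 34.0, 46.4 and 36.3 in the lung FAPs and at 77.3, 82.7, 78.3 and 72.3 in the MEFs. It was higher in the muscle FAPs than in the lung FAPs at 0.32 (SE 0.09, edgeR adjusted p = 0.0143), with lung FAP 4 inside the muscle range. That call was lost with upper-quartile scaling and with lung FAP 2 and 3 left out together, and with library size only the value was −0.09.

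Complex IV, cytochrome c oxidase, split into widely expressed subunits and alternative forms. All 10 widely expressed subunits (Cox4i1, Cox5a, Cox5b, Cox6a1, Cox6b1, Cox6c, Cox7a2, Cox7b, Cox7c and Cox8a) were lower in the muscle FAPs and in the lung FAPs than in the MEFs, with medians of −1.05 and −1.01. Of all genes tested, 37.3% were lower in the muscle FAPs and 36.6% in the lung FAPs than in the MEFs. Between both kinds of FAP, 9 of the 10 did not pass in edgeR and Cox6b1 was lower in the muscle FAPs. The median over the 10 was 0.02. Among all genes tested between both kinds of FAP, 25.0% were lower and 23.2% higher in the muscle FAPs. With library size only, the median of all genes itself moved, as given above.

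Cox5a, a subunit of the matrix side that is needed for assembly, had the largest difference from the MEFs among genes called lower. It stood at 19.4, 24.9, 25.04 and 22.8 CPM in the muscle FAPs, at 19.99, 23.3, 24.0, 23.8 and 21.2 in the lung FAPs and at 121, 127, 127 and 106 in the MEFs. The FAP libraries overlapped and all lay far below the MEFs. Its log2 fold change was −2.38 in the muscle FAPs (SE 0.10, edgeR adjusted p = 4.3e-11) and −2.42 in the lung FAPs against the MEFs (SE 0.08, edgeR adjusted p = 1.5e-11), and 0.04 in the muscle FAPs against the lung FAPs (SE 0.10, edgeR adjusted p = 0.785). Of its 50-base stretches, 32.1% also occur in other annotated genes, among them an antisense gene, and the sources used here do not give the strand used in counting. Cox4i1, the widely expressed form of the subunit that binds ATP, stood at 132, 150.5, 174 and 185 CPM in the muscle FAPs, at 163, 136, 144, 182 and 139 in the lung FAPs and at 309, 402, 472 and 296 in the MEFs, with the FAPs overlapping one another and below all MEFs. Cox7a2 ranged over 45.6 to 50.6 CPM in the muscle FAPs, 42.1 to 55.4 in the lung FAPs and 86.1 to 95.7 in the MEFs. Cox6a1 and Cox8a had log2 fold changes of 0.06 and 0.12 in the muscle FAPs against the lung FAPs, neither past the test, and of −1.08 and −0.98 in the muscle FAPs against the MEFs. Cox6b1 stood at 50.2, 43.5, 45.5 and 52.2 CPM in the muscle FAPs, at 62.3, 68.0, 59.8, 80.5 and 70.1 in the lung FAPs and at 135, 149, 155 and 131 in the MEFs, without overlap, and was lower in the muscle FAPs than in the lung FAPs by −0.51 (SE 0.10, edgeR adjusted p = 0.000814).

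The alternative forms had patterns of their own by group. Cox6b2 (chr7:4751792-4753094, minus strand, GRCm38), the form known from testis, stood at 0.640, 1.39, 1.04 and 1.29 CPM in the muscle FAPs, at 13.2, 18.5, 13.8, 12.9 and 16.0 in the lung FAPs and at 5.35, 5.37, 4.91 and 5.43 in the MEFs. The 3 groups were far apart, with lung FAPs highest. It was lower in the muscle FAPs than in the lung FAPs by a log2 fold change of −3.77 (SE 0.26, edgeR adjusted p = 7.59e-09) and than in the MEFs by −2.27 (SE 0.24, edgeR adjusted p = 1.59e-07), and was higher in the lung FAPs than in the MEFs at 1.499 (SE 0.10, edgeR adjusted p = 4.42e-06). These calls held in all alternatives run for each comparison. Its count per 100 counts of Cox6b1, not corrected for transcript length and so read only between libraries, was 2.30 ± 0.791 in the muscle FAPs, 22.1 ± 4.05 in the lung FAPs and 3.72 ± 0.440 in the MEFs (SD).

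Cox4i2 (chr2:152754173-152765037, plus strand, GRCm38), the form known from lung and smooth muscle, was far above the other groups in the lung FAPs. It stood at 0.233, 0.798, 0.345 and 0.449 CPM in the muscle FAPs, at 8.10, 78.5, 3.84, 4.29 and 11.3 in the lung FAPs and at 0.267, 0.127, 0.182 and 0.0819 in the MEFs. Every lung FAP library lay above every other library, and lung FAP 2 lay far above the rest of its group. The log2 fold change was −5.53 in the muscle FAPs against the lung FAPs (SE 0.85, edgeR adjusted p = 0.000978) and 7.01 in the lung FAPs against the MEFs (SE 0.83, edgeR adjusted p = 0.000136). Without lung FAP 2 these were −3.89 and 5.35, and both still passed. Muscle FAPs against the MEFs did not pass (1.48, SE 0.42, edgeR adjusted p = 0.295), but passed when these groups were fitted alone (1.51, edgeR adjusted p = 0.0138). Per 100 counts of Cox4i1 there were 4.96, 57.6, 2.67, 2.35 and 8.18 counts of Cox4i2 in the lung FAPs, against at most 0.530 in the muscle FAPs and 0.0862 in the MEFs.

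Markers of mural cells, the pericytes and smooth muscle of vessels and airways, also differed between the lung libraries. Summed over 9 markers they were 122 to 125 CPM in the muscle FAPs, 997, 2246, 871, 589 and 1588 in the lung FAPs and 2109.9 to 3717 in the MEFs, where Acta2 alone held 1855 to 3353 and Cox4i2 was at most 0.267. Myh11, the myosin of smooth muscle, stood at 153, 435, 115, 54.9 and 347 CPM in the lung FAPs, and Notch3, a receptor of mural cells, at 53.6, 206, 64.5, 7.81 and 166. Both were highest in lung FAP 2, like Cox4i2, and next highest in lung FAP 5. Kcnj8 and Abcc9, the potassium channel subunits of pericytes, were even across the lung FAPs, at 62.9 to 77.0 and 251 to 281 CPM. Endothelial Cdh5 was also highest in lung FAP 2, at 2.03, 151, 3.75, 34.8 and 11.6 CPM. No marker of this list was at 0 in all libraries of a group. The part of these cells in the Cox4i2 level was not tested.

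**Figure D3:**
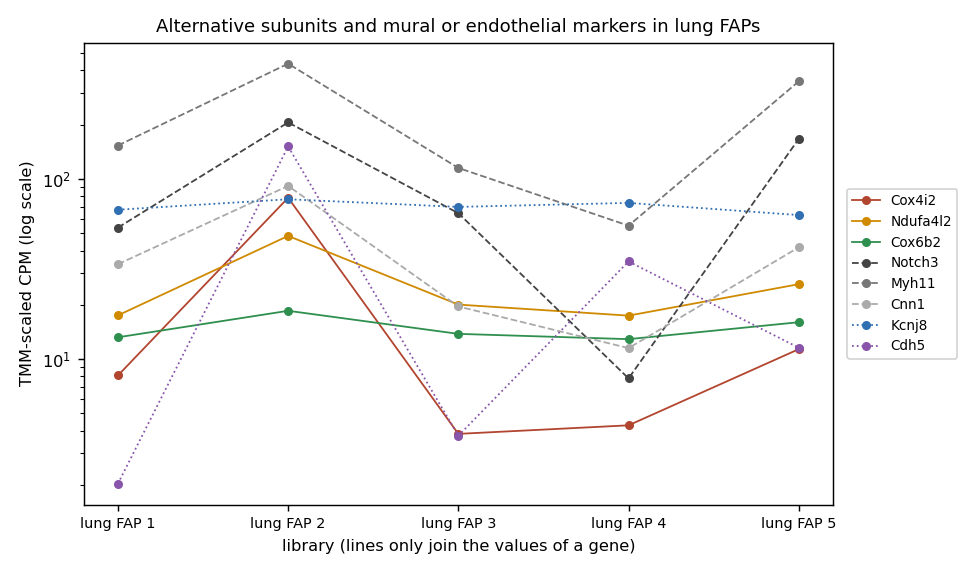
TMM-scaled CPM on a log axis (y) in the 5 lung FAP libraries (x) for Cox4i2, Ndufa4l2 and Cox6b2 (solid), the mural markers Notch3, Myh11 and Cnn1 (dashed) and Kcnj8 and endothelial Cdh5 (dotted). Cox4i2 reaches 78.5 CPM in lung FAP 2 and 3.84 to 11.3 elsewhere, while Cox6b2 stays between 12.9 and 18.5 and Kcnj8 between 62.9 and 77.0.

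Ndufa4l2 (chr10:127514967-127517154, plus strand, GRCm38) separated FAPs of both tissues from MEFs. It stood at 28.3, 32.6, 32.3 and 34.2 CPM in the muscle FAPs, at 17.5, 48.2, 20.05, 17.4 and 26.0 in the lung FAPs and at 0.654, 0.594, 0.159 and 0.430 in the MEFs. Every FAP library lay above every MEF library, and muscle FAPs lay within the range of the lung FAPs through lung FAP 2 alone, since the other 4 lung FAPs, at 17.4 to 26.0 CPM, lay below every muscle FAP library. The log2 fold change was 6.11 in the muscle FAPs (SE 0.40, edgeR adjusted p = 1.06e-08) and 5.81 in the lung FAPs against the MEFs (SE 0.48, edgeR adjusted p = 1.35e-08), and 0.30 in the muscle FAPs against the lung FAPs (SE 0.28, edgeR adjusted p = 0.429). That last difference was 0.67 and passed with lung FAP 2 left out (edgeR adjusted p = 0.0173). It was highest in lung FAP 2, where mural and endothelial markers were highest. In the muscle FAPs the mural markers summed to 122 to 125 CPM. The part of such cells in the Ndufa4l2 level was not tested. An exon of Ndufa4l2 overlaps Shmt2 on the opposite strand, and reads of the pair cannot be told apart without strand. Its partner Ndufa4, named for complex I and now placed in complex IV, went the other way, with 44.5, 37.6, 36.5 and 48.6 CPM in the muscle FAPs, 58.7, 59.6, 52.1, 73.4 and 71.0 in the lung FAPs and 135, 136, 129.9 and 127 in the MEFs. It was lower in the muscle FAPs (−1.66, SE 0.10, edgeR adjusted p = 9.62e-09) and in the lung FAPs than in the MEFs (−1.07, SE 0.09, edgeR adjusted p = 5.25e-07), without overlap. Per 100 counts of Ndufa4 there were 77.3 ± 12.2 counts of Ndufa4l2 in the muscle FAPs, 41.9 ± 22.6 in the lung FAPs and 0.345 ± 0.161 in the MEFs (SD).

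Cox8b (chr7:140898945-140900446, minus strand, GRCm38), the form known from heart, muscle and brown fat, was low in every group and highest in the muscle FAPs. It stood at 1.37, 1.45, 1.55 and 2.78 CPM in the muscle FAPs, at 1.06, 0.885, 0.894, 0.365 and 0.692 in the lung FAPs and at 0.0485, 0.0849, 0.0681 and 0.0410 in the MEFs. The groups did not overlap. It was higher in the muscle FAPs (4.81, SE 0.26, edgeR adjusted p = 7.25e-07) and in the lung FAPs than in the MEFs (3.61, SE 0.28, edgeR adjusted p = 9.57e-06). The difference of 1.19 in the muscle FAPs against the lung FAPs (SE 0.34, edgeR adjusted p = 0.023) no longer passed without muscle FAP 5, where the log2 fold change was 0.90, with lung FAP 2, 3 and 4 left out together, or with library size only. Summed over 9 muscle fibre markers, muscle FAPs held 12.2 to 18.8 CPM, lung FAPs 5.88 to 47.5 and MEFs 20.3 to 27.0. Acta1 alone held 16.8 to 23.3 CPM of the MEF sum. Tnnt3 averaged 5.31 CPM in the muscle FAPs, 7.58 in the lung FAPs and 1.09 in the MEFs. The means of Ckm, Tnni2, Atp2a1, Myh1 and Myh4 were also lowest in the MEFs, while those of Myh2 and Mb were lowest in the muscle FAPs. The 5 fat markers summed to 127 to 427 CPM in the muscle FAPs, where Dio2 held 126 to 426, to 28.3 to 70.4 in the lung FAPs and to 1.49 to 3.20 in the MEFs. The fat cell genes Adipoq and Plin1 ran the other way, at 0.192 and 0.138 CPM on average in the muscle FAPs against 5.95 and 3.37 in the lung FAPs, and the brown fat genes Ucp1 and Cidea were at or under 0.262 CPM in every library. The part of such cells in the Cox8b level was not tested. Cox6a2 and Cox7a1, the other forms of heart and muscle, did not pass in any comparison, though Cox6a2 passed under some alternatives. In the muscle FAPs against the lung FAPs it passed without muscle FAP 5 (−2.96, edgeR adjusted p = 0.0428), with limma-voom (−2.80) and with library size only (−2.38). In the muscle FAPs against the MEFs it passed with limma-voom (−2.25). Cox6a2 was at most 0.329 CPM in the muscle FAPs, 1.34 in the lung FAPs and 0.315 in the MEFs, and Cox7a1 at most 1.07, 1.33 and 0.743.

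**Figure D4:**
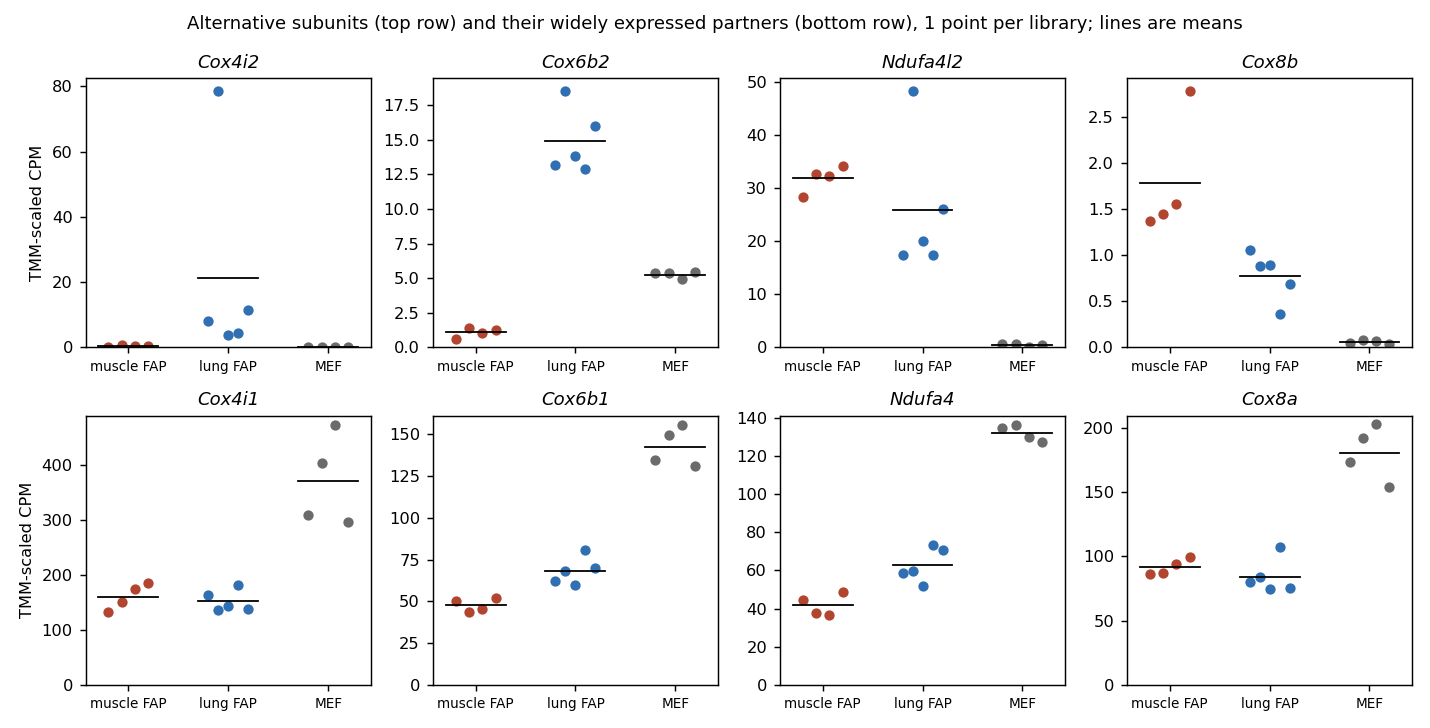
TMM-scaled CPM (y axes, each from 0 on its own scale) of the alternative subunits Cox4i2, Cox6b2, Ndufa4l2 and Cox8b above and their partners Cox4i1, Cox6b1, Ndufa4 and Cox8a below, by library in the muscle FAPs, lung FAPs and MEFs (x axes); lines are means. The partners are highest in the MEFs, at 296 CPM or more for Cox4i1, while the mean of each alternative form is highest in one kind of FAP.

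In complex V, ATP synthase, 14 of 17 genes were lower in the muscle FAPs and 14 in the lung FAPs than in the MEFs, with medians of −1.06 and −0.79. The shares lower among all genes tested were 37.3% and 36.6%. Atp5e, the epsilon subunit of the rotor, and Atp5sl, also annotated as Dmac2 and known as an assembly factor of complex I, did not pass in either comparison. Atp5b, the catalytic beta subunit, stood at 570.3, 627, 641 and 593 CPM in the muscle FAPs, at 455, 408, 433, 457 and 441 in the lung FAPs and at 1412, 1658, 1755 and 1341 in the MEFs. All groups were apart, and lung FAPs were lowest. It was lower in the muscle FAPs (−1.34, SE 0.10, edgeR adjusted p = 4.58e-08) and in the lung FAPs than in the MEFs (−1.81, SE 0.10, edgeR adjusted p = 6.98e-10), and higher in the muscle FAPs than in the lung FAPs (0.47, SE 0.05, edgeR adjusted p = 0.00201). With library size only that last value was 0.06 and did not pass. The other 4 genes of the F1 head and its rotor, Atp5a1, Atp5c1, Atp5d and Atp5e, did not pass between both kinds of FAP, while 5 of 7 genes of the peripheral stalk and membrane part were lower in the muscle FAPs, with a median of −0.34 over the 7. Over all 17 genes of the complex, 6 were lower and 1 higher in the muscle FAPs than in the lung FAPs, with a median of −0.22. In that comparison 25.0% of all genes tested were lower and 23.2% higher. Atp5d, the delta subunit, stood at 68.8 to 75.3 CPM in the muscle FAPs, 68.3 to 90.7 in the lung FAPs and 137 to 229 in the MEFs, and was lower in the muscle FAPs (−1.29) and lung FAPs (−1.22) than in the MEFs. Atp5s was higher in the lung FAPs than in the MEFs at 0.55 (SE 0.19, edgeR adjusted p = 0.0251), with overlapping libraries.

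The c ring of ATP synthase, the rotor that protons turn, is made of 1 protein encoded by 3 genes, and these differed from one another. Atp5g1 stood at 32.1, 37.0, 33.9 and 32.8 CPM in the muscle FAPs, at 55.6, 42.2, 41.3, 58.3 and 45.8 in the lung FAPs and at 95.3, 123, 128 and 94.8 in the MEFs. It had no overlap between groups and was lower in the muscle FAPs than in the lung FAPs (−0.52, SE 0.11, edgeR adjusted p = 0.0041) and than in the MEFs (−1.70, SE 0.12, edgeR adjusted p = 2.76e-08). Atp5g3 stood at 98.1, 101, 105 and 106 CPM in the muscle FAPs, at 105, 90.8, 90.2, 118 and 101 in the lung FAPs and at 214, 249.97, 244 and 202 in the MEFs, and Atp5g2 at 59.5 to 72.9 CPM in the muscle FAPs, 58.5 to 84.8 in the lung FAPs and 99.5 to 116 in the MEFs. Neither passed between both kinds of FAP (0.02 and −0.01), and both were lower than MEFs in each. Per 100 counts of Atp5g3 there were 33.1 ± 2.40 counts of Atp5g1 in the muscle FAPs, 47.9 ± 3.18 in the lung FAPs and 48.3 ± 3.35 in the MEFs (SD), a description with no test. Of the 50-base stretches of Atp5g2, 87.4% also occur in other annotated genes, so its level is uncertain; for Atp5l the share was 84.9% and for Cox7c 53.0%.

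In some libraries of each group most chain genes lay on the same side of their group mean. In lung FAP 4, 72 of the 81 genes lay above their group mean, with a median deviation of 0.24 on the log2 scale, while the median of all genes deviated by 0.00. Muscle FAP 5 had 73 of 81 above, with a median of 0.13, and MEF 2 had 76 above, with 0.10. Lung FAP 3, the library with epithelial RNA, had 10 of 81 above and a median of −0.12, and MEF 4 had 15 above and −0.15. Muscle FAP 3 had 10 of 81 above and a median of −0.07, muscle FAP 2 had 16 and −0.08, and MEF 1 had 21 and −0.055. Lung FAP 5 had 30 above and −0.06, and MEF 3 had 55 and 0.10. The remaining libraries were closer to even. Lung FAP 1 had 40 of 81 above and a median of −0.01, muscle FAP 4 had 48 and 0.01, and lung FAP 2 had 33 and −0.03. These values are descriptions of single libraries.

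**Figure D5:**
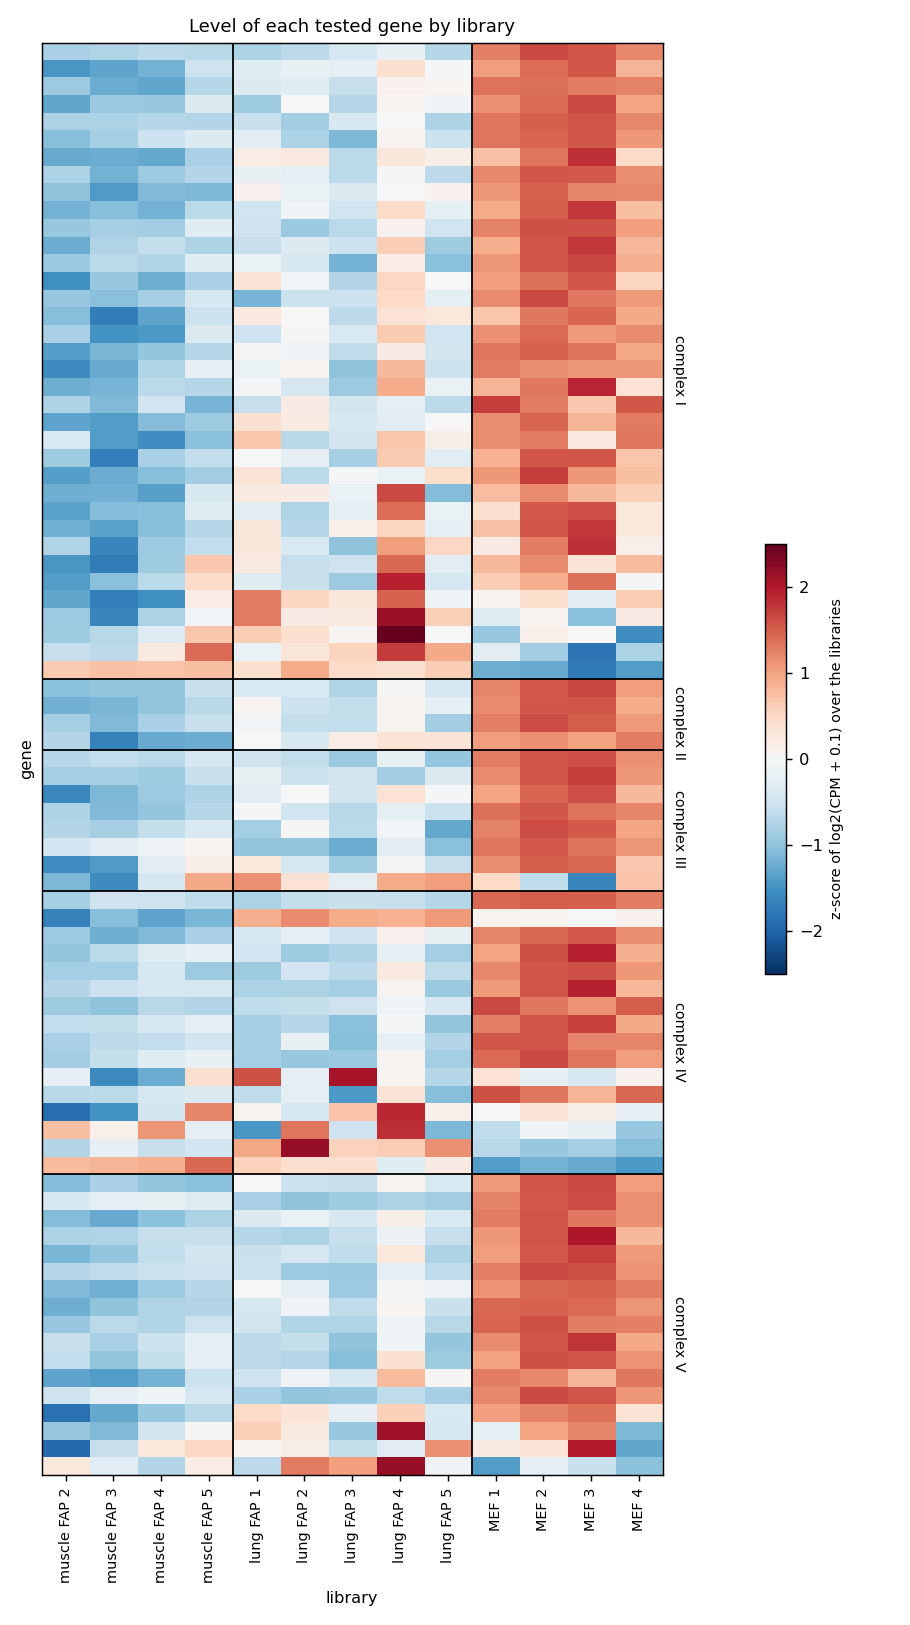
z-score over the 13 libraries of log2(CPM + 0.1) for each of the 81 tested genes (rows, grouped by complex and ordered within it by the log2 fold change of the muscle FAPs against the MEFs) in the libraries of the muscle FAPs, lung FAPs and MEFs (columns). Red is above and blue below the gene's own mean; lung FAP 4 is the reddest lung FAP column, with 72 of 81 genes above their group mean.

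Other genes of the pathway were read from lists, and their counts stand beside the shares of all genes tested, which were 37.3% lower and 36.1% higher in the muscle FAPs against the MEFs, 36.6% lower and 37.8% higher in the lung FAPs against the MEFs, and 25.0% lower and 23.2% higher in the muscle FAPs against the lung FAPs. Of 43 assembly factors listed, 38 were in the table and 37 were tested. Of these, 28 were lower and 2 higher in the muscle FAPs than in the MEFs (median −0.74), 25 lower and 3 higher in the lung FAPs than in the MEFs (median −0.63), and 15 lower and 4 higher in the muscle FAPs than in the lung FAPs (median −0.29). Cox10, which makes the heme A of complex IV, was at 6.36 ± 1.18 CPM in the muscle FAPs, 7.90 ± 1.31 in the lung FAPs and 23.4 ± 1.11 in the MEFs. Ttc19, a complex III factor, was higher in the muscle FAPs than in the lung FAPs (29.1 ± 4.46 against 14.4 ± 2.48 CPM, log2 fold change 1.02, edgeR adjusted p = 3.83e-05). Ndufaf3, a complex I factor, was lower in the muscle FAPs than in the lung FAPs (5.09 ± 0.455 against 10.6 ± 2.13 CPM, log2 fold change −1.06, edgeR adjusted p = 0.000152). Of 18 electron carriers and linked dehydrogenases, 13 were lower and 4 higher in the muscle FAPs than in the MEFs, and 10 lower and 4 higher in the lung FAPs. Coq4, a gene of ubiquinone synthesis, was lower in each kind of FAP than in the MEFs, with 2.38 ± 0.828 CPM in the muscle FAPs, 4.58 ± 0.476 in the lung FAPs and 11.9 ± 1.83 in the MEFs. Etfa, which feeds electrons from fatty acid oxidation to ubiquinone, was higher in FAPs, with 108 ± 9.27, 126 ± 23.1 and 44.1 ± 3.93 CPM in the muscle FAPs, lung FAPs and MEFs.

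Of 13 citric acid cycle genes, 10 were lower and 0 higher in the muscle FAPs, and 10 lower and 1 higher in the lung FAPs, than in the MEFs. Cs, citrate synthase, was at 84.5 ± 6.50 CPM in the muscle FAPs, 94.9 ± 14.3 in the lung FAPs and 279.7 ± 14.3 in the MEFs, and Mdh2, malate dehydrogenase, at 86.1 ± 7.74, 114 ± 13.5 and 342 ± 45.0. Of 6 genes of the ATP synthase inhibitor and supercomplex list, 5 were lower in each kind of FAP than in the MEFs; the other was Cox7a2l, a supercomplex factor that the symbol rule also counts in complex IV. Atpif1, the ATP synthase inhibitor, was at 25.8 ± 3.18, 38.6 ± 5.17 and 66.1 ± 2.01 CPM in the muscle FAPs, lung FAPs and MEFs. Of 9 genes of contact sites and inner membrane shape, 7 were lower in the muscle FAPs and 5 in the lung FAPs than in the MEFs, and 0 were higher. Immt, the core of the contact site complex, was at 55.6 ± 1.06 CPM in the muscle FAPs, 64.6 ± 6.95 in the lung FAPs and 159.7 ± 4.15 in the MEFs. Of 16 genes of uncoupling and alternative fuel, 13 were tested, and of these 7 were lower and 3 higher in the muscle FAPs, and 8 lower and 4 higher in the lung FAPs, than in the MEFs. Among all genes tested, 37.3% were lower and 36.1% higher in the muscle FAPs, and 36.6% lower and 37.8% higher in the lung FAPs. Pdk4 and Pdk2, kinases that shut pyruvate dehydrogenase, were among the higher ones, with Pdk4 at 89.5 ± 9.58 CPM in the muscle FAPs, 68.1 ± 9.17 in the lung FAPs and 12.8 ± 1.79 in the MEFs.

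Of 18 regulators of respiratory genes tested, 5 were higher and 6 lower in the muscle FAPs, and 4 higher and 9 lower in the lung FAPs, than in the MEFs, and 6 were higher and 1 lower in the muscle FAPs than in the lung FAPs. Among all genes tested, 36.1% were higher and 37.3% lower in the muscle FAPs against the MEFs, so the count of regulators there lay near that of all genes; in the lung FAPs against the MEFs 37.8% were higher and 36.6% lower, and in the muscle FAPs against the lung FAPs 23.2% and 25.0%. Lrpprc, which stabilises the messenger RNA of mitochondria, was at 22.9 ± 1.92 CPM in the muscle FAPs, 25.6 ± 1.83 in the lung FAPs and 110.2 ± 13.4 in the MEFs, with a log2 fold change of −2.27 in the muscle FAPs against the MEFs (SE 0.11, edgeR adjusted p = 7.51e-11). Esrra, a nuclear receptor of respiratory genes, was at 14.2 ± 1.98, 11.4 ± 2.31 and 39.4 ± 10.1 CPM in the muscle FAPs, lung FAPs and MEFs, and its coactivator Ppargc1a at 0.491 ± 0.232, 0.720 ± 0.672 and 3.50 ± 0.474. Both were lower in each kind of FAP than in the MEFs. Nrf1 was at 21.4 ± 0.806 CPM in the muscle FAPs, 24.5 ± 1.20 in the lung FAPs and 39.5 ± 3.18 in the MEFs, lower in the muscle FAPs than in the MEFs (−0.88, edgeR adjusted p = 3.36e-07). Gabpa and Tfam did not pass in any comparison, but both passed under some alternatives: Tfam at 0.44 in the muscle FAPs against the lung FAPs without lung FAP 1, and Gabpa at 0.27 in the muscle FAPs against the MEFs without MEF 4. Sirt1, a deacetylase, was higher in the muscle FAPs than in the lung FAPs (1.06, edgeR adjusted p = 6.38e-06) and than in the MEFs (2.27, edgeR adjusted p = 8.87e-10), at 106 ± 15.8, 50.7 ± 4.24 and 21.9 ± 3.52 CPM. In all comparisons with MEFs the markers of the cell cycle differed as given above, and their part in these values was not tested.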

How the data were processed

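Libraries were prepared from total RNA, per the labels' protocols. Reads were aligned with Bowtie2 2.1.0.0 to mm10 and counted with HTSeq, and edgeR is also named, per the submitters' processing notes. The annotation, the strand setting and the treatment of multi-mapping reads are unstated in the sources used here. The deposited table holds raw read counts per gene for 13 libraries, with 0 columns of other samples. Genes were chosen by symbol, and their membership and the lists of genes were chosen with earlier results of these data known.

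Counts were scaled by TMM, filtered by filterByExpr (15412 genes kept) and fitted in R 4.3.3 by the robust quasi-likelihood model of edgeR 4.0.16, as 1 fit of all 13 libraries with group as the only factor, tested on simulated data with known changes. Calls needed a p under 0.05 after Benjamini-Hochberg adjustment over all genes tested, with no minimum fold. For the SE, log2 CPM values of the libraries were used, with 2 as prior count. Libraries held at least 28636183 counts, which limits precision mainly for genes with few reads. Named genes are, per comparison and complex, the 2 called genes of largest fold with at least 5 CPM. Also named are the tissue isoforms with their partners, complex II, the c ring and 5 regulators. From each further list the same rule took the 2 called genes of largest fold per comparison, and only some of these are described. Ppard and Cpt2 are among those whose levels are not given. Other genes named were chosen after their values were seen. Positions and shared 50-base stretches come from GENCODE M21 (GRCm38, the build mm10). Alternatives were DESeq2 1.42.0 size factors and its Wald test, upper-quartile scaling, library size only, no filter, a filter of 5 CPM in 4 libraries, limma 3.58.1 voom with sample weights, glmTreat against 1.5-fold, the compared groups alone, a replicate block and left-out libraries. Replicate numbers did not pair the samples.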

Additional observations from a re-analysis of the deposited data

Results flagged for a closer look

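In 87 groups of 4 or 5 libraries, 1 library lay further from the others than Dixon's 95% limit in 11. For independent groups chance would give about 1 in 20. These groups share libraries, and many of their genes were chosen for large differences, so that rate is no measure for them. Lung FAP 2 was high in Cox4i2 at 78.5 CPM, against 3.84 to 11.3 in the other lung FAPs, and in Ndufa4l2 at 48.2 CPM, against 17.4 to 26.0. Lung FAP 4 was high in Uqcrfs1 at 46.4 CPM (others 34.0 to 37.3), Cox6a1 at 110.1 CPM (others 74.4 to 79.1), Cox8a at 107 CPM (others 74.2 to 83.8) and Atp5g2 at 84.8 CPM (others 58.5 to 65.1). Muscle FAP 5 was high in Ndufa11 at 25.2 CPM (others 20.8 to 21.2), Sdhb at 54.0 CPM (others 43.2 to 44.4) and Cox8b at 2.78 CPM (others 1.37 to 1.55). Lung FAP 3 was low in Ndufa11 at 26.6 CPM, against 37.2 to 39.3, and MEF 3 was low in Cox6b2 at 4.91 CPM, against 5.35 to 5.43. Cause was not tested for any of these.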

How the results depend on the processing

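Leaving out each library in turn gave 23 to 37 lower and 2 to 4 higher chain genes in muscle FAPs against lung FAPs, 65 to 69 lower and 2 higher in muscle FAPs against MEFs, and 58 to 65 lower and 5 to 8 higher in lung FAPs against MEFs. With library size only, muscle FAPs against lung FAPs had 0 higher, 74 lower and a median of −0.63, and the median against MEFs was −1.52; the all-gene median moved with it. Under that scaling, log2 fold changes turned sign for Uqcrfs1 (−0.087), Mfn2 (−0.0028) and Pdk4 (−0.0094) in muscle FAPs against lung FAPs and for Ppard in muscle FAPs against MEFs (−0.163), none past the test, while genes not called with TMM passed with the other sign for Uqcrq (−0.397), Cox5a (−0.374), Cox6a1 (−0.343), Atp5g3 (−0.383), Usmg5 (−0.369) and Gabpa (−0.290) in muscle FAPs against lung FAPs and for Suclg2 (−0.519) and Gabpa (−0.355) in muscle FAPs against MEFs. Asked for more than 1.5-fold by glmTreat, a stricter question, muscle FAPs against lung FAPs kept 0 higher and 2 lower, and lung FAPs had 40 lower than MEFs. The test against 1.5-fold apart, 0 of 3 higher and 21 of 31 lower calls in muscle FAPs against lung FAPs were kept in all alternatives, 2 of 2 and 65 of 67 in muscle FAPs against MEFs, and 4 of 6 and 55 of 61 in lung FAPs against MEFs. Libraries with the same replicate number did not deviate together (correlations of −0.048 to 0.061), and not every library correlated best with its own number. With the replicate block the counts were 3 higher and 26 lower in muscle FAPs against lung FAPs, 2 and 66 in muscle FAPs against MEFs, and 6 and 58 in lung FAPs against MEFs. Fold changes near 1.2 in muscle FAPs against lung FAPs are close to the spread between libraries, and genes under 1 CPM rest on few reads.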
